A study of Mus musculus with 12 samples.

Results

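The genes of DNA repair and of the checkpoint that answers DNA damage were taken as 49 genes chosen by name from these pathways: homologous recombination with the Fanconi anemia genes, mismatch repair, end joining, excision repair, and the checkpoint kinases with their sensors. Of these, 48 had a probe set with 1 gene symbol, out of 19938 such genes on the array, and Xrcc2 was not analysed here. Their RNA came from quadriceps of C57Bl/6 mice at day 7 and was measured on 6 arrays labelled WT (wildtype) and 6 labelled KO (cofilin-2 null), each from a separate mouse. The controls were littermates of the mice lacking cofilin-2, a protein that takes apart actin filaments and whose loss gives a congenital myopathy; the labels do not name the allele, and the RNA is that of all cells in the muscle. Cfl2 itself ran against the labels, with log2 levels of 12.31 to 12.43 on the arrays labelled KO and 4.92 to 7.71 on those labelled WT. Groups are therefore called labelled KO and labelled WT, no array was moved, and every direction is that of the deposited labels. That direction is opposite to the one the study's text gives for Brca1 and Chek2, and to the loss of Cfl2 that the labels name.

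Cells repair DNA by several routes. Homologous recombination copies an intact sister chromatid to mend a double-strand break, which is possible only after the DNA has been replicated, and the Fanconi proteins hand it crosslinks that block replication forks. End joining ligates broken ends directly and works in resting cells too. Mismatch repair corrects copying errors, and excision repair cuts out damaged bases or bulky lesions. The kinases ATM and ATR sense damage and signal through CHK2 and CHK1 to halt the cell cycle. Muscle fibres themselves no longer divide, so genes that serve replication are mainly used in muscle by its dividing precursor, connective tissue, vessel and blood cells.

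Of the 48 measured genes, 27 were higher and 2 were lower on the arrays labelled KO (adjusted p at or under 0.05, limma). Over all genes tested, 20.1% were higher and 11.8% lower, or 31.9% in either direction, and with each array centred on its median these shares were 25.8% and 6.72% while 31 and 1 of the 48 passed. Checkpoint kinase 1, Chek1, had the largest difference among them and was 1.78-fold higher, followed by the Fanconi gene Fancb and the end joining gene Xrcc5 (log2 differences of 0.83 ± 0.10, 0.65 ± 0.08 and 0.65 ± 0.07, SE). The 2 that were lower, Xpa and Xpc, both recognise bulky lesions in nucleotide excision repair. The median log2 difference of the 48 genes was 0.26, beside a median of -0.015 over all genes tested. In 17 of the 48 genes every array labelled KO lay above every array labelled WT, as in 10.7% of all genes, and in 1, Xpc, every one lay below, as in 4.69% of all genes. In whole muscle, fewer cells of a type and less RNA per cell cannot be told apart.

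**Figure D1:**
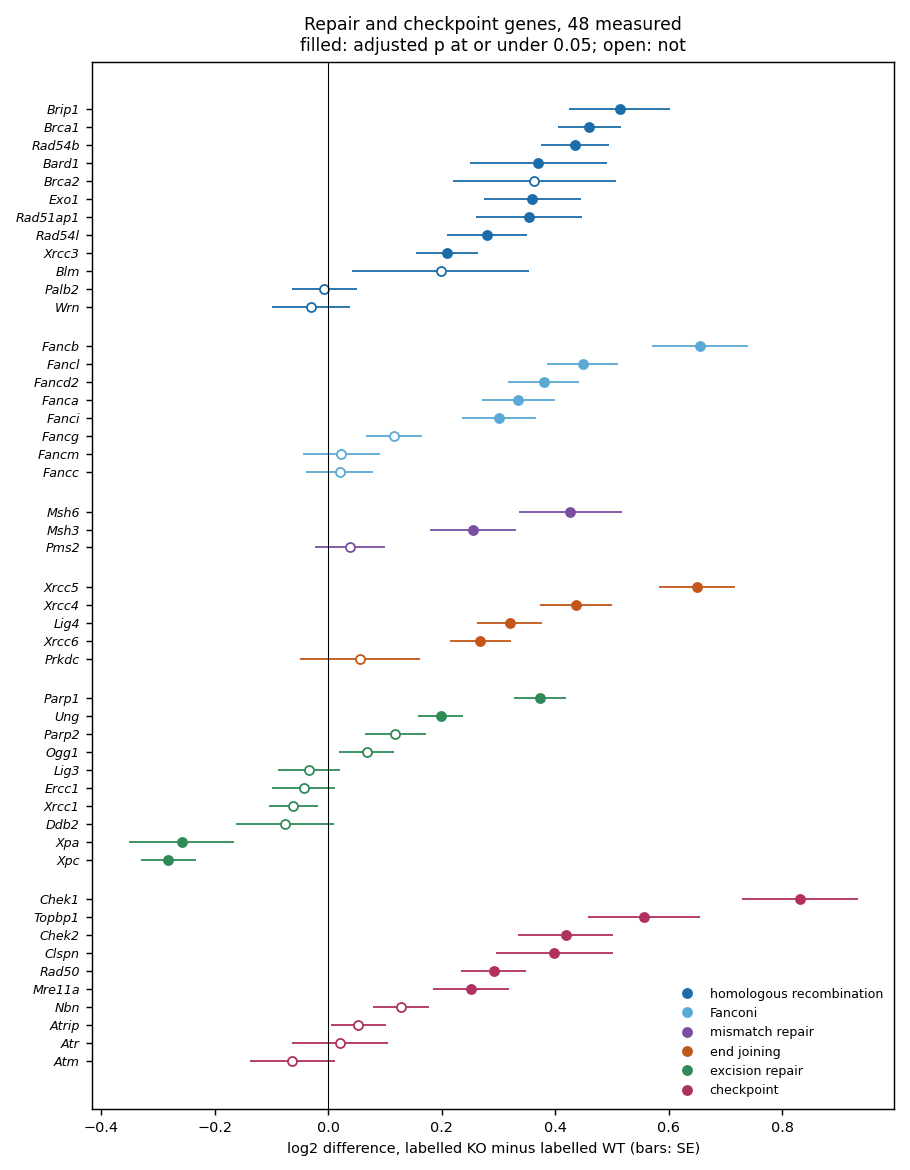
Log2 difference of each of the 48 genes, labelled KO minus labelled WT, with its SE (horizontal axis, log2 units), grouped by pathway; filled points passed an adjusted p of 0.05. Chek1 lies farthest to the right at 0.83, and Xpc and Xpa are the filled points left of 0, at -0.28 and -0.26.

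Promoter sequences are shown for 4 genes that were higher, because replication-linked genes are classic targets of E2F, the factor that switches on S phase genes. In the window from 250 bases before to 50 after the gene start, the letters TTTCCCGC, TTTGGCGC, TTTCGCGC and TTTGCCGC were searched on both strands. They occurred in 9 of 41 windows of the 39 member genes listed in the RefSeq promoter table of GRCm38.p6, or 22.0%, and in 2.26% of all 32851 windows. The genes were Bard1, Brca2, Fancg, Msh3, Msh6, Xrcc6, Chek2, Topbp1 and Clspn, and Msh3 held 2 that overlap. Of these, Brca2 and Fancg were not called. Chek1, Fancb and Xrcc5, which had the largest differences, had windows without these letters. The letters TTTGAA, a core of the element that represses genes of G2 and mitosis in resting cells, were in 1 window, that of Bard1 (2.44%), and in 17.9% of all windows. The search is a description of letters and shows no binding, and the windows compared were not matched for base content. The 250 bases before the gene start are printed 5′ to 3′ on the strand of each gene, with the E2F-type letters in capitals.
Chek2, chr5:110839733-110839982, + strand: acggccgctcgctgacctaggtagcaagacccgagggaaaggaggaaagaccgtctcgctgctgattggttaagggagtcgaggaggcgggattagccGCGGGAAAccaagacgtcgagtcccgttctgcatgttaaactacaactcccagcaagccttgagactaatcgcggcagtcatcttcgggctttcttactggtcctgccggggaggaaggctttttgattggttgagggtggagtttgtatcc
Topbp1, chr9:103305077-103305326, + strand: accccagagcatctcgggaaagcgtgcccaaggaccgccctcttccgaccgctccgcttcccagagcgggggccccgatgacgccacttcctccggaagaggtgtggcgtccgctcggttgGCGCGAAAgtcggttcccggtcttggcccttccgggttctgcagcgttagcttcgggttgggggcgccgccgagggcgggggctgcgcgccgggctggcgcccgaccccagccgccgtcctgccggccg
Bard1, chr1:71102973-71103222, - strand: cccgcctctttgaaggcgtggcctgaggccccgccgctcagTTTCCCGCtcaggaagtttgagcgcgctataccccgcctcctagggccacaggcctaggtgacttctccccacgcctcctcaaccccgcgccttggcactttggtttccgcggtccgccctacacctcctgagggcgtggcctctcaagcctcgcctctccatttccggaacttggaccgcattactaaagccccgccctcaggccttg
Xrcc6, chr15:82016119-82016368, + strand: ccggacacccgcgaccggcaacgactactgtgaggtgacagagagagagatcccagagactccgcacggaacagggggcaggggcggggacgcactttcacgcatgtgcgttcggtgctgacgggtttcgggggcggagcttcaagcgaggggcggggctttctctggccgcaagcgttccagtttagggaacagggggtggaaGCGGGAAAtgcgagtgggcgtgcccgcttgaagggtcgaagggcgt

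The whole series and its arrays differed in more than these genes. Of the 33 measured genes of a list for cycling cells, 31 were higher, and the mean of the list was 7.44 to 8.38 in the group labelled WT and 8.48 to 8.70 in that labelled KO. The marker lists of other cells that a muscle holds also differed in places. Endothelial markers averaged 9.55 to 9.95 against 10.06 to 10.12, macrophage markers 7.98 to 8.40 against 8.48 to 8.64 and fibroblast markers 10.60 to 10.88 against 10.92 to 11.15. The array labelled WT4 stood apart in neutrophil and erythroid markers, with list means of 8.58 and 8.67, where the other arrays lay at 5.29 to 5.79 and 6.33 to 7.15, and in T and B cell markers, at 5.91 beside 5.31 to 5.47. Muscle fibre markers averaged 12.50 to 12.84 in the group labelled WT and 12.72 to 12.90 in that labelled KO. Of these 12 genes, 1 was higher, Myh4, by a log2 difference of 1.70, and 4 were lower, Myh8, Tnnt3, Mylpf and Tnni2. Satellite cell markers averaged 8.37 to 8.43 in the group labelled WT and 8.42 to 8.52 in that labelled KO. Adipocyte markers were at 8.20 on the array labelled KO5, 9.55 to 9.97 on the rest of its group and 8.21 to 9.06 in the group labelled WT. The part of these cell types in the results was not tested.

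Of 12 homologous recombination genes, 8 were higher in the group labelled KO, and the median log2 difference was 0.36. Brca1 encodes the scaffold that brings recombination factors to broken ends. Its log2 levels had a lowest, median and highest value of 5.75, 5.89 and 6.01 in the group labelled WT, and of 6.27, 6.33 and 6.46 in that labelled KO, an order kept for the triplets below. The groups did not overlap, and the difference was 0.46 ± 0.06 (SE, adjusted p = 4.71e-05). Brip1, the helicase that binds BRCA1, lay at 5.54, 5.80 and 6.11 against 6.20, 6.27 and 6.52. It too separated the groups and had the largest difference of the pathway, 0.51 ± 0.09 (adjusted p = 0.000628). Bard1, the partner with which BRCA1 forms a ubiquitin ligase, ranged from 5.94 to 6.28 in the group labelled WT apart from 6.76 on WT4, while the group labelled KO had 6.34, 6.58 and 6.80. Its groups overlapped through WT4 alone, and its difference of 0.37 ± 0.12 (adjusted p = 0.0312) was 0.48 without that array (adjusted p = 0.000556). The call was lost without any 1 of WT1, WT2, WT5, WT6, KO3, KO4, KO5 and KO6. Rad54b, a DNA translocase that helps strand exchange, had levels of 5.32, 5.48 and 5.56 against 5.74, 5.92 and 6.01. The groups lay apart again, by a difference of 0.44 ± 0.06 (adjusted p = 0.000123).

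The remaining recombination genes that rose did so by less, and all of them overlapped between groups. The exonuclease Exo1, which resects DNA ends and also serves mismatch repair, differed by 0.36 ± 0.09, Rad51ap1 by 0.35 ± 0.09, the translocase Rad54l by 0.28 ± 0.07 and Xrcc3 by 0.21 ± 0.05 (SE, adjusted p from 0.00556 to 0.0106). The Xrcc3 call was lost after quantile normalization (0.15, adjusted p = 0.0664). Brca2 and Blm depended on the arrays labelled WT4 and WT6, the highest and the lowest of their group. Brca2 acts with BRCA1 in recombination, and its levels in the group labelled WT ran from 6.00 on WT6 to 7.19 on WT4, with a median of 6.62. The group labelled KO lay closer together, at 6.89, 7.04 and 7.11. Brca2 did not pass (0.36 ± 0.14, adjusted p = 0.0675), but without WT4 its difference was 0.47 with an adjusted p of 0.0083, and without WT6 it was 0.23 (adjusted p = 0.0955). It also passed with array weights and with centred arrays (adjusted p = 0.0169 and 0.038). Blm, the helicase mutated in Bloom syndrome, was also highest on WT4, at 7.69, beside 6.50 to 7.02 on the rest of that group and 6.97 to 7.36 in the group labelled KO. Its difference was 0.20 ± 0.16 (adjusted p = 0.353), and it was 0.35 without WT4 (adjusted p = 0.0144) and 0.11 without WT6 (adjusted p = 0.622). With both arrays left out, a setting chosen after seeing the data, Brca2 and Blm passed at 0.34 and 0.28 (adjusted p = 0.00256 and 0.034). Wrn, the helicase of Werner syndrome, had medians of 7.00 in both groups and a difference with a 95% interval of -0.18 to 0.12. Palb2, which links BRCA1 to BRCA2, was the 1 member whose mean lay below the 25th percentile of all rows, and it differed by -0.01 ± 0.06.

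**Figure D2:**
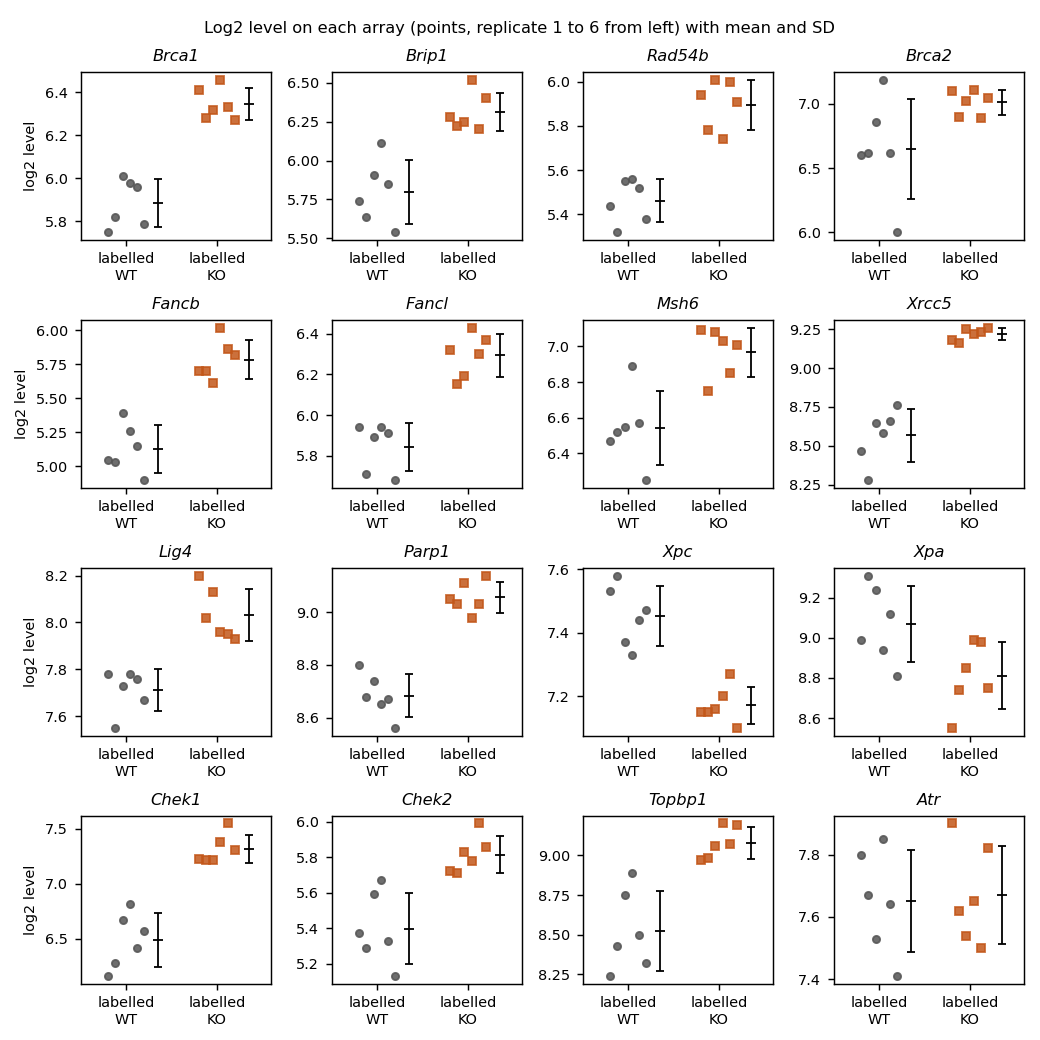
Log2 level of 16 of the genes (vertical axis, own scale in each panel) on the arrays labelled WT (circles) and labelled KO (squares), with mean and SD (n = 6) beside the points. Chek1, Xrcc5 and Brca1 show no overlap between groups, Brca2 and Msh6 overlap through the array labelled WT4 at 7.19 and 6.89, and Atr overlaps throughout.

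Of the 8 Fanconi genes, 5 were higher, and these encode parts of both the core complex and its substrate. Fancb, a core complex subunit encoded on the X chromosome, had levels of 4.90, 5.10 and 5.39 against 5.61, 5.76 and 6.02. Its groups did not overlap (0.65 ± 0.08, adjusted p = 8.03e-05). Fancl is the ubiquitin ligase of the complex and lay at 5.68, 5.90 and 5.94 against 6.15, 6.31 and 6.43. The difference was 0.45 ± 0.06 (adjusted p = 0.000139). Fanca, a further core subunit, had levels of 5.86, 6.07 and 6.29 against 6.32, 6.38 and 6.56, a gap of only 0.03 between the groups for a difference of 0.34 ± 0.06 (adjusted p = 0.00132). Fancd2 and Fanci form the pair that the complex ubiquitinates. Fancd2 lay at 5.63, 5.74 and 5.98 against 6.02, 6.14 and 6.28 (0.38 ± 0.06, adjusted p = 0.000459), while Fanci differed by 0.30 ± 0.07 with overlap (adjusted p = 0.00309). The other core subunits gave smaller differences. Fancg, at 6.31, 6.40 and 6.50 against 6.41, 6.53 and 6.65, did not pass (0.12 ± 0.05, adjusted p = 0.0866), but did with arrays centred, with quantile normalization and with array weights (0.14 to 0.17, adjusted p from 0.0128 to 0.0291). It also passed with both WT4 and WT6 left out (0.155, adjusted p = 0.0408). For Fancm, which lands the complex on DNA, the levels of 5.83, 6.10 and 6.26 against 6.01, 6.08 and 6.24 left an interval of -0.12 to 0.17, and for Fancc it was -0.11 to 0.15.

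Mismatch repair was covered by 3 genes, of which 2 were higher. Msh6 encodes the subunit that recognises single mismatches. Its levels were 6.25, 6.54 and 6.89 against 6.75, 7.02 and 7.09. The array labelled WT4 alone reached into the other group, and the difference was 0.43 ± 0.09 (adjusted p = 0.00289). Msh3, its alternative that recognises small loops, had levels of 7.34, 7.55 and 7.78 against 7.65, 7.83 and 7.90 and differed by 0.26 ± 0.08 (adjusted p = 0.0193). Pms2, the nuclease subunit that acts after recognition, lay at 7.36, 7.46 and 7.69 against 7.44, 7.47 and 7.64. Its interval of -0.09 to 0.17 held 0.

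Of 5 end joining genes 4 were higher, and in each of the 4 the groups lay apart. Xrcc5 and Xrcc6 encode KU80 and KU70, the ring that first grips a broken end. Xrcc5 was tight in the group labelled KO, at 9.16, 9.22 and 9.26, and lower in that labelled WT, at 8.28, 8.62 and 8.76. The gap of 0.40 between the groups equalled that of Chek1, and Xrcc5 was 1.57-fold higher (0.65 ± 0.07, adjusted p = 1.6e-05). Xrcc6 had levels of 7.17, 7.23 and 7.35 against 7.36, 7.54 and 7.67, so that the groups were parted by 0.01 for a difference of 0.27 ± 0.05 (adjusted p = 0.0019). Lig4 is the ligase that closes the break, and Xrcc4 is its partner. Xrcc4 lay at 7.53, 7.74 and 7.87 against 8.03, 8.22 and 8.24 (0.44 ± 0.06, adjusted p = 0.000185). Lig4 had levels of 7.55, 7.75 and 7.78 against 7.93, 7.99 and 8.20 (0.32 ± 0.06, adjusted p = 0.000849). Prkdc, the kinase that KU recruits, did not pass. Its levels of 6.63, 6.82 and 7.17 against 6.65, 6.87 and 7.32 overlapped widely, with an interval of -0.17 to 0.28.

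Of 10 excision repair genes, 2 were higher and 2 lower, beside 20.1% higher and 11.8% lower of all genes. The share higher, 20.0%, was thus that of all genes. The median log2 difference of -0.04 turned to 0.0125 with each array centred on its median. All 4 members of nucleotide excision repair lay below 0, Ercc1 only without that centring, and 4 of the 6 of base excision and strand break repair lay above it. Genes of nucleotide excision repair outside the members went mostly the other way where called. Ercc3, Ercc8, Gtf2h3, Gtf2h4 and Cetn2 were higher by 0.20 to 0.54, and Ercc5 was lower (-0.39). Among the 10 members Parp1, which senses single-strand breaks, was the clearest, at 8.56, 8.68 and 8.80 against 8.98, 9.04 and 9.14. Its groups did not overlap (0.37 ± 0.05, adjusted p = 5.45e-05). Ung removes uracil from DNA, and its levels of 7.04, 7.17 and 7.24 against 7.30, 7.37 and 7.38 gave a small but separated difference of 0.20 ± 0.04 (adjusted p = 0.00182). Xpc, the damage detector of nucleotide excision repair, moved the other way. It lay at 7.33, 7.46 and 7.58 in the group labelled WT and at 7.10, 7.16 and 7.27 in that labelled KO, with no overlap, and was 1.22-fold lower (-0.28 ± 0.05, adjusted p = 0.000631). Xpa, which verifies the lesion, overlapped between groups at 8.81, 9.05 and 9.31 against 8.55, 8.80 and 8.99. Its difference of -0.26 ± 0.09 only just passed (adjusted p = 0.0473), and the call was lost without any 1 of WT1, WT2, WT3, WT5, KO1, KO2, KO3 and KO6 and when each array was centred on its median (-0.21, adjusted p = 0.107).

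The 6 other excision genes did not pass the threshold. Ercc1, part of the nuclease that cuts beside a lesion, had levels of 8.63, 8.79 and 8.88 against 8.61, 8.71 and 8.89. Xrcc1, the scaffold of single-strand break repair, lay at 8.23, 8.36 and 8.45 against 8.22, 8.29 and 8.37. Their intervals were -0.16 to 0.08 and -0.15 to 0.03, and Xrcc1 passed after quantile normalization (-0.14, adjusted p = 0.0353). Lig3, the ligase bound to XRCC1, and the glycosylase Ogg1, which removes oxidised guanine, had intervals of -0.15 to 0.09 and -0.04 to 0.17. Parp2, a relative of Parp1, was at 0.12 ± 0.05 (adjusted p = 0.111) and passed with arrays centred and without WT3 (adjusted p = 0.0314 and 0.0461). Ddb2, a lesion sensor, differed by -0.08 ± 0.09, and by -0.15 ± 0.06 without its lowest array, WT6 (adjusted p = 0.0664).

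Of 10 checkpoint genes 6 were higher, with a median log2 difference of 0.27. Chek1, the kinase that ATR activates at stalled forks, lay at 6.16, 6.50 and 6.82 against 7.22, 7.27 and 7.55. Its groups were 0.40 apart at their nearest (0.83 ± 0.10, adjusted p = 5.47e-05). Chek2, the kinase downstream of ATM, had levels of 5.13, 5.35 and 5.67 against 5.71, 5.80 and 5.99 and differed by 0.42 ± 0.08 (adjusted p = 0.00186). Topbp1, the activator of ATR, lay at 8.24, 8.46 and 8.89 against 8.97, 9.07 and 9.20 (0.56 ± 0.10, adjusted p = 0.000789). Clspn encodes claspin, the adaptor between ATR and CHK1, and overlapped at 5.79, 6.00 and 6.41 against 6.22, 6.47 and 6.56 (0.40 ± 0.10, adjusted p = 0.00935). The kinases at the head of the pathway did not pass. Atr ranged over 7.41, 7.65 and 7.85 against 7.50, 7.63 and 7.90, with an interval of -0.16 to 0.20, while the interval was -0.22 to 0.10 for Atm and -0.05 to 0.16 for Atrip, the partner of ATR. Of the complex that detects double-strand breaks, Rad50 and Mre11a were higher by 0.29 ± 0.06 and 0.25 ± 0.07 (adjusted p = 0.00166 and 0.0111), Rad50 with no overlap between groups. Nbn, its remaining subunit, lay at 8.21, 8.35 and 8.44 against 8.39, 8.45 and 8.59 and did not pass (0.13 ± 0.05, adjusted p = 0.0625), except with arrays centred and without WT1 (adjusted p = 0.0167 and 0.0454). A further Nbn probe set with a lower mean level gave the opposite sign, -0.26 ± 0.09 (adjusted p = 0.0425).

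**Figure D3:**
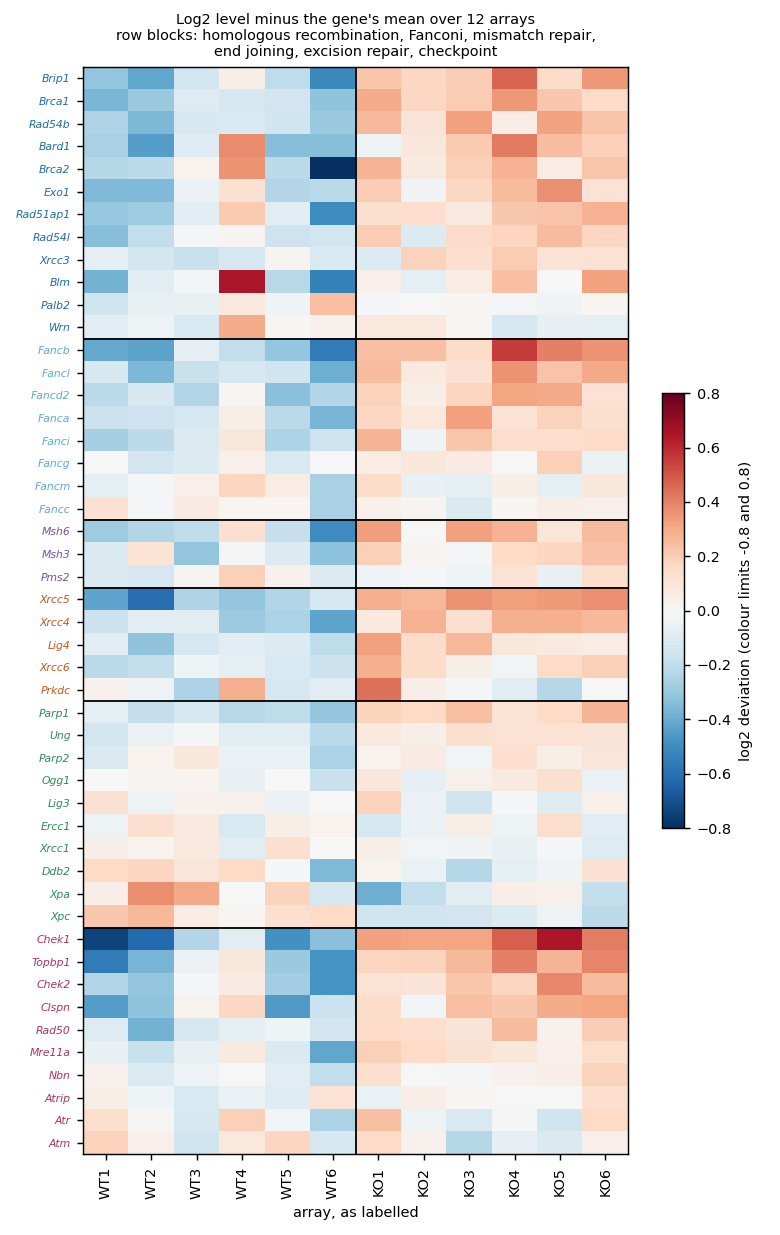
Log2 level of the 48 genes (rows, in blocks by pathway) on each of the 12 arrays (columns, as labelled), minus the mean of the gene over all arrays, from blue (lower) to red (higher). Within the group labelled WT the column WT4 was the highest for 23 genes and WT6 the lowest for 22.

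The arrays of one group did not carry these genes at one level. Among the arrays labelled WT, WT4 had the highest value for 23 of the 48 genes and WT6 the lowest for 22. The mean over the 20 recombination and Fanconi genes was 5.96 on WT6, 6.03 on WT2, 6.04 on WT1, 6.10 on WT5, 6.17 on WT3 and 6.34 on WT4, and it lay between 6.32 and 6.45 on the arrays labelled KO. The cycling list ran nearly alike within that group, from 7.44 on WT6 through 7.75 on WT1, 7.80 on WT2, 7.92 on WT5 and 8.27 on WT3 to 8.38 on WT4. End joining genes spread less in the group labelled WT, though in nearly the same order. Their means were 7.55 on WT2, 7.59 on WT6, 7.62 on WT1 and WT5, 7.65 on WT3 and 7.70 on WT4. In the group labelled KO they were 7.91 to 8.08. Excision repair genes averaged 7.83 to 8.03 and 7.92 to 8.002, so that one range lay inside the other. On the array labelled KO5, which was low in adipocyte markers, the recombination and Fanconi mean was 6.42, within the range of the other arrays labelled KO.

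**Figure D4:**
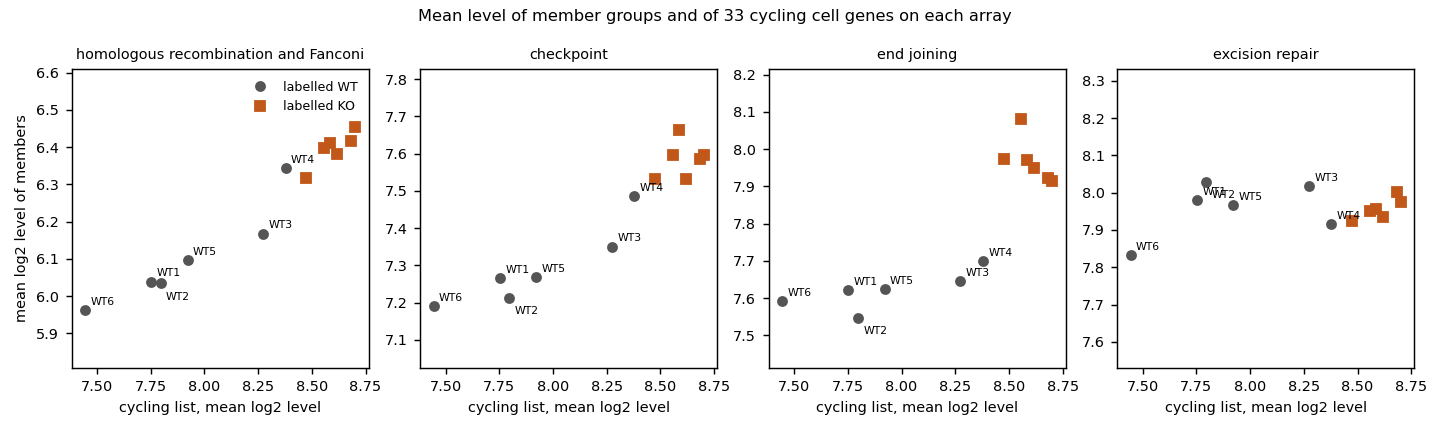
Mean log2 level of 4 groups of genes (vertical axes, each spanning the same width of 0.8) against the mean of 33 cycling cell genes (horizontal axis) on each array, for arrays labelled WT (circles, named) and labelled KO (squares). Recombination and Fanconi genes run from 5.96 on WT6 to 6.34 on WT4 as the cycling list rises. End joining genes run in nearly the same order over a narrower range, from 7.55 on WT2 to 7.70 on WT4.

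The mean of the cycling list was also taken as a covariate. Its range on the arrays labelled WT did not reach that on the arrays labelled KO. With this covariate 2 of the 48 genes were higher, both among the 27, and 0 were lower. The share higher was near the 4.27% of all genes that were higher, while 2.58% of all genes were lower. The 2 genes were Xrcc5, at 0.64 ± 0.12 (adjusted p = 0.00823), and Parp1, at 0.33 ± 0.08 (adjusted p = 0.0288). Chek1 was then at 0.52 ± 0.15 (adjusted p = 0.0603) and Brca1 at 0.27 ± 0.08 (adjusted p = 0.0529). Xpc was at -0.17 ± 0.08 (adjusted p = 0.237). Over the 48 genes the median difference went from 0.26 to 0.06 and the median SE from 0.06 to 0.10, and 18 differences in place of 9 lay below 0. Among these, Blm was at -0.49 ± 0.16 and Brca2 at -0.33 ± 0.12 (adjusted p = 0.0958 and 0.127). With the adipocyte mean as a covariate 16 genes were higher and 1 lower, at a median difference of 0.23.

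Of 105 other measured genes of repair, taken from lists drawn up by name, 38 were higher and 5 lower, with a median log2 difference of 0.10, or 36.2% higher beside 20.1% of all genes. Among 30 further recombination and Fanconi genes 11 were higher and 2 lower. Hells, a chromatin remodeller of dividing cells, differed by 0.80 ± 0.13, the nuclease Gen1, which cuts crossed strands, by 0.75 ± 0.10 and the helicase Recql by 0.51 ± 0.06, while Rad52, which anneals single strands, differed by -0.42 ± 0.05 and Smc5 by -0.25 ± 0.06 (SE). Of 18 further checkpoint genes 11 were higher, led by Tipin, which protects replication forks, at 0.58 ± 0.15, and 1 was lower, the kinase Smg1 at -0.50 ± 0.09. Of 31 further excision repair genes 8 were higher and 2 lower, a share of 25.8% higher that is near that of all genes. The replicative ligase Lig1 (0.58 ± 0.10), Cetn2, which binds XPC (0.54 ± 0.06), and the flap nuclease Fen1 (0.38 ± 0.08) led the rises, and Ercc5, which cuts on the other side of a lesion, and Parp3 were lower by -0.39 ± 0.10 and -0.17 ± 0.05. Of 9 further end joining genes 2 were higher, or 22.2%, again near the share of all genes, and these were Mdc1 and Rnf168, which mark chromatin around a break, at 0.36 ± 0.07 and 0.34 ± 0.05. Both further mismatch repair genes were higher, Mlh3 by 0.46 ± 0.09 and Pms1 by 0.14 ± 0.04.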

How the data were processed

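Total RNA of quadriceps muscle was hybridized to Affymetrix Mouse Gene 1.0 ST arrays, 1 mouse an array. The authors extracted images with the Affymetrix operating software and made normalized gene level values with Affymetrix Power Tools. Neither the algorithm of that step nor a build is given in the sources used here. Values as deposited are on a log2 scale, as judged from their range, and their precision is limited by the 12 arrays.

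Groups came from the titles. Of 35556 probe sets, 21789 had 1 symbol in the platform annotation, 1621 had several and 12146 none; 21698 were renamed through their gene number in the RefSeq table of GRCm38.p6. The probe set with the highest mean over 12 arrays stood for each of 19938 genes. Differences, labelled KO minus labelled WT, were fitted with limma 3.58.1 in R 4.3.3 (lmFit, eBayes, no covariate) on the 21789 probe sets, with Benjamini-Hochberg adjustment over all of them at 0.05; percentages of all genes count 1 probe set a gene. Intervals are 95%. Code was tested on simulated data.

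Members and lists were chosen with earlier results of these data known, and lists are described by counts and medians. Values are given, in each pathway, for up to 4 called members with the largest difference, all lower ones, Brca1, Chek2 and up to 2 uncalled members with the highest mean level. Of the other genes, up to 3 a direction and list are named. Further genes of nucleotide excision repair and of lesion bypass were named after their values were seen. Marker lists covered cycling cells, muscle fibre, satellite cell, fibroblast, adipocyte, endothelial, macrophage, neutrophil, erythroid, and T and B cells. Alternatives were a replicate block, median centring, quantile normalization, no dim probe sets, all rows, trend and robust variance, array weights, the methods' t-test, the mean of a gene's probe sets, 2 covariates, each array left out, and, chosen after seeing the data, both WT4 and WT6 left out. Promoter windows were searched for fixed letters with Python 3.11.15.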

Additional observations from a re-analysis of the deposited data

Results flagged for a closer look

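In 6 of 96 sets of 6 arrays (48 genes in 2 groups) 1 array lay far from the others of its group, and chance gives about 1 in 20. Rad54l was at 6.10 on the array labelled KO2 and at 6.36 to 6.46 on the others labelled KO. Xrcc3 was at 7.70 on KO1, with the others labelled KO at 7.91 to 8.01. Both genes were called higher, and these single arrays are where their groups overlap. Fancc was low on WT6, at 5.71 against 5.95 to 6.09, and on KO3, at 5.85 against 5.98 to 6.02. Ddb2 was at 6.01 on WT6, beside 6.35 to 6.53 in the rest of that group. Rad50 was at 8.08 on WT2, beside 8.30 to 8.42 in the same group.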

How the results depend on the processing

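The 27 higher genes numbered 26 to 31 under 21 of the 23 other settings planned, the exceptions being the covariates, with 16 (adipocyte) and 2 (cycling), and 30 with both WT4 and WT6 left out. Leaving out single arrays gave 26 to 29 higher and 1 to 2 lower genes. Xpa accounts for the lower count: only Xpc was lower after centring of arrays, so that the count was 1, as with all rows tested, by the methods' t-test and with the adipocyte covariate. With the cycling covariate limma called 0 lower, with 5 at an unadjusted p under 0.05. The Bard1 call was lost by the methods' t-test, with the adipocyte covariate and without any 1 of the 8 arrays named above. With the cycling covariate Bard1 and Rad51ap1 turned to -0.11 and -0.0803, and of the uncalled members Blm, Brca2, Fancm and Pms2 to -0.49, -0.33, -0.21 and -0.16. All called probe sets, 6952 in the fit reported, numbered 3188 with the adipocyte and 1468 with the cycling covariate. Pathway medians under the cycling covariate were 0.0511 for recombination, 0.11 for Fanconi, 0.072 for mismatch repair, 0.0407 for the checkpoint, 0.27 for end joining and -0.0274 for excision repair. The excision repair median was 0.0125 after centring and 0.0223 with the adipocyte covariate, and that of end joining 0.26 after quantile normalization; the cause was not tested. Centring moved the share of higher calls over all probe sets from 61.1% to 77.8%. The methods' t-test put 29 genes higher and 2 lower past the methods' limits, with the fold change limits applied to folds from the log2 differences. After Benjamini-Hochberg it put 26 higher and 1 lower. For Cfl2 such a fold was 79.99, labelled KO over labelled WT. The KO over WT ratio that the study prints for Cfl2 points the other way and is much less extreme. The counts of 29 and 2 are therefore not those on the study's own measure. A replicate block gave 27 higher and 2 lower genes and 6074 probe sets; deviations of arrays with the same number correlated at -0.22 to 0.17, so that, although the methods speak of littermate pairs, the numbers were not taken as pairs. In 26 of the 29 genes the call held under every setting other than the covariates, the exceptions being Bard1, Xpa and Xrcc3.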

Other observations

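Genes that copy past lesions or reverse them directly were a further group. Of 15 measured, 4 were higher, with a median log2 difference of 0.10; this share of 26.7% is near the 20.1% of all genes that were higher. The 4 were named in full after their values were seen. Polh, the polymerase that bypasses ultraviolet lesions, differed by 0.35 ± 0.07 and Mad2l2, a subunit of polymerase zeta, by 0.35 ± 0.08. Rad18, the ligase that marks the sliding clamp for bypass, differed by 0.36 ± 0.12 and Ube2n, a ubiquitin conjugating enzyme, by 0.45 ± 0.10 (SE).

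Bard1 had 3 probe sets. A second, with a lower mean level than the one reported, separated the groups, at 5.63 to 5.92 (labelled WT) against 5.97 to 6.33 (labelled KO) (0.31 ± 0.07, adjusted p = 0.0034), and the third did not pass (0.09 ± 0.04, adjusted p = 0.156).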
